A study of Homo sapiens with 12 samples.

Results

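The replication-dependent histone genes encode the bulk histones H1, H2A, H2B, H3 and H4 that are laid down on newly copied DNA. Their members were chosen by name and not by measured values, as the protein-coding genes of GENCODE 29 whose symbol begins with HIST1H, HIST2H, HIST3H or HIST4H. There are 71 such genes, with 6 in H1, 17 in H2A, 18 in H2B, 15 in H3 and 15 in H4, and 55 lie on chromosome 6, 15 on chromosome 1 and 1 on chromosome 12. Of the 71, 30 had an entry in the deposited tables, matched by Ensembl identifier, out of 33704 identifiers in all. These were 5 H1, 9 H2A, 9 H2B, 3 H3 and 4 H4 genes, 21 of them on chromosome 6, 8 on chromosome 1 and 1 on chromosome 12. Of the other 41 members, 32 have identifiers later than the last identifier of the tables and 9 do not, and none of the 41 is analysed here.

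Histone genes of this kind are read mainly in S phase, when DNA is copied, and their output is tied to DNA synthesis. The end of most of their mRNAs is not a poly(A) tail but a conserved stem-loop, which is bound by the protein SLBP and cut by a machinery that includes the U7 snRNP. Some of the genes can also give longer, polyadenylated mRNAs that run past the stem-loop, and these are known in cells that are differentiating or not dividing. The libraries here were made from poly(A)-selected RNA, so they count polyadenylated and carried-over histone RNA and not the whole histone mRNA pool.

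The cells were Jurkat, human leukaemia cells of the T lineage that grow as an established line, in 6 groups of 2 libraries. TAL1-KD cells carried an shRNA against the transcription factor gene TAL1 that is switched on by doxycycline, given at 5 µg/ml for 72 h, and TAL1-control cells carried the same construct with no doxycycline. UTX-KD and UTX-control cells were the same design with an shRNA against UTX, the histone H3 lysine 27 demethylase encoded by KDM6A. All 4 of these groups grew under blasticidin and G418 selection. J4-2uM cells received GSK-J4, an inhibitor of KDM6 demethylases, at 2 µM for 72 h, and J4-control cells received DMSO for 72 h, and the labels name no shRNA in either. Doxycycline itself was given only to the knockdown groups, so its effect and that of the shRNA cannot be told apart.

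Counted reads ran from 55524079 to 82534711 per library. Levels are given as CPM, counts scaled by library size with TMM factors within a comparison. TAL1 mRNA stood at 232 and 254 CPM in TAL1-KD and 254 and 257 CPM in TAL1-control (log2 fold change -0.07, edgeR adjusted p = 0.490). KDM6A mRNA stood at 29.3 and 29.4 CPM in UTX-KD and 30.9 and 31.3 CPM in UTX-control (log2 fold change -0.08, edgeR adjusted p = 0.103). Neither target was shown to be lower, so every direction below is that of libraries labelled as knockdowns. Separate cultures are not stated for the replicates of a group, so p-values reflect no more than how far these libraries differed, possibly for technical reasons. T-lineage markers summed to 2104 to 3968 CPM, myeloid markers to 0.583 to 1.86 CPM and erythroid markers to 0.280 to 0.768 CPM per library. B-lineage markers, nearly all CD79A, summed to 62.2 and 65.8 CPM in TAL1-KD against 70.5 and 72.3 CPM in TAL1-control, and to 58.8 and 57.2 CPM in UTX-KD against 40.3 and 41.4 CPM in UTX-control. Stromal markers summed to 6.34 and 6.09 CPM in TAL1-KD against 9.80 and 9.64 CPM in TAL1-control, to 4.22 and 4.41 CPM in UTX-KD against 4.83 and 4.91 CPM in UTX-control, and to 18.4 and 19.5 CPM in J4-2uM against 10.9 and 10.7 CPM in J4-control. Their part in the histone results was not tested. With TMM scaling 4424 genes were higher and 4696 lower in TAL1-KD, and with total-count scaling 3024 and 5495. The same split was 4240 and 4269 in UTX-KD with TMM and 6326 and 2694 with total counts, and in J4-2uM it was 6794 and 6616 with TMM and 8650 and 4948 with total counts. Total counts moved the median of all genes by -0.14 (TAL1-KD) and 0.17 (J4-2uM) on the log2 scale. Offsets for transcript length and GC content gave 5665 higher and 3954 lower in TAL1-KD and moved its median by 0.11. Leaving out TAL1-control replicate 1 left 2431 higher and 3094 lower calls in TAL1-KD.

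The stem-loop is shown first, because its place in a transcript separates the short, stem-loop ended mRNA from the longer form. The 16-base sequence was found in the annotated GENCODE 29 transcripts of 17 members, 9 of them with an entry in the tables. The search allowed a second letter at 4 of the positions, all 17 matches had the same letters, and other variants were not looked for. It is given for 4 of those 9, on the transcript's strand with 5 flanking bases on each side, and the capitals mark the stem-loop.
HIST2H2BE: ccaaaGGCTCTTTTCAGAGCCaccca
HIST3H2A: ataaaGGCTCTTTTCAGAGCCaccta
HIST1H2AC: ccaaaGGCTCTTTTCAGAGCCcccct
HIST1H2BL: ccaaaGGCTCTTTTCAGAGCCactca

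On GRCh38 the stem-loop lies at chr1:149886188-149886203 (minus strand) in HIST2H2BE, an H2B gene, and 1729 annotated transcript bases follow it. In the H2A gene HIST3H2A it lies at chr1:228457369-228457384 (minus strand), with 390 bases after it. In the H2A gene HIST1H2AC it lies at chr6:26124669-26124684 (plus strand), with 1128 bases after it. In the H2B gene HIST1H2BL it lies at chr6:27807484-27807499 (minus strand), with only 40 bases after it. Among the 9 members with an entry, HIST2H2BF (1479 bases) and HIST3H2BB (1917 bases) also run far past the stem-loop, while HIST1H2AI (39 bases) and HIST2H2AA3 (35 bases) end near it. Other members had no match, some with long annotated transcripts such as HIST1H2AG (2250 bases), HIST1H4H (2163 bases) and HIST4H4 (1918 bases). Others had short annotated transcripts, such as HIST1H2BK (381 bases, the coding part), HIST1H3D (411 bases) and HIST1H1C (642 bases). An annotated transcript that stops before the stem-loop cannot give a match, so a missing match does not show that a gene lacks it.

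Promoters of 4 members that the results turn on are shown next, 2 of H1 and 2 of the core histones. Each is the RefSeq window of 300 bases on GRCh38.p14, from 250 bases before the annotated start to 50 after it, on the gene's strand. HIST1H1C lies at chr6:26056421-26056720 (minus strand) and HIST1H1D at chr6:26234938-26235237 (minus strand). HIST1H2BK lies at chr6:27146809-27147108 (minus strand) and HIST1H2AG at chr6:27132793-27133092 (plus strand). Capitals mark matches, on either strand, to 3 motifs, the octamer ATTTGCAT, the CCAAT box CCAAT and the H1 box AAACACA. The octamer and the CCAAT box can share letters, but in these 4 windows no match overlaps another.
HIST1H1C: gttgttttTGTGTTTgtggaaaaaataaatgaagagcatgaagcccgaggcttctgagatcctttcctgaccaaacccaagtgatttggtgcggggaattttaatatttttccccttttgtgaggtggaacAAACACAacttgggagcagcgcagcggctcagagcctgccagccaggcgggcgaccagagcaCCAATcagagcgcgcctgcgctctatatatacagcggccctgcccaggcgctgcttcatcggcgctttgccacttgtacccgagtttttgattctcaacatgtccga
HIST1H1D: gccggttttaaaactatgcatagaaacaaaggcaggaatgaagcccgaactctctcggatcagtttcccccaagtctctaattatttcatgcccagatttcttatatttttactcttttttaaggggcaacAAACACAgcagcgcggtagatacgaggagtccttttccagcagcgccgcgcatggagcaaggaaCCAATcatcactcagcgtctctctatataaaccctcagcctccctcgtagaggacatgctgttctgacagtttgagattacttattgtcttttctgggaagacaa
HIST1H2BK: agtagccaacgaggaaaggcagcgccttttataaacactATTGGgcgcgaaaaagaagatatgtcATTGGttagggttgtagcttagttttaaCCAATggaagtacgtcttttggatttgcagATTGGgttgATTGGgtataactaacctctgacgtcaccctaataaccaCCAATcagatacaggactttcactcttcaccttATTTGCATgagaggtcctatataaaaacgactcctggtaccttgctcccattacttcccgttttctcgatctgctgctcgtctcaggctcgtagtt
HIST1H2AG: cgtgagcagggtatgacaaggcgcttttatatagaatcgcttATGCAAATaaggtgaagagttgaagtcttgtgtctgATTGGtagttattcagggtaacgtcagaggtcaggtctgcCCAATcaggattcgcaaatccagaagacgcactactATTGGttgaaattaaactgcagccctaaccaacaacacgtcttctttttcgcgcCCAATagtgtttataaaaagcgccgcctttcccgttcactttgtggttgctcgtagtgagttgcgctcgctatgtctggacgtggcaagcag

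Promoter letters divided the histone classes. The octamer, which the factor POU2F1 (Oct-1) is known to bind, was in 14 of 18 H2B and 11 of 16 H2A promoters, in 1 of 13 H3 promoters and in 0 of 6 H1 and 0 of 13 H4 promoters, against 1.77% of all 35116 RefSeq promoters. The H2A and H2B counts are not separate. Genes of the 2 classes that face each other share most of a window, 253 to 271 bases in the pairs given below. A match there can count in both classes. The single H3 match is that of HIST1H3D, whose window is the same as that of the H2A gene HIST1H2AD. The H1 box, an element known from H1 promoters, was in 6 of 6 H1 promoters, 1 of 16 H2A, 0 of 18 H2B, 2 of 13 H3 and 0 of 13 H4 promoters, against 5.64% of all promoters. The CCAAT box, known as a binding site of NF-Y, was in 6 of 6 H1, 16 of 16 H2A, 18 of 18 H2B and 13 of 13 H3 promoters and in 3 of 13 H4 promoters, against 34.6% of all promoters. In total 66 members had a promoter in the table, 28 of them with an entry in the deposited tables. A match describes these letters only.

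**Figure D1:**
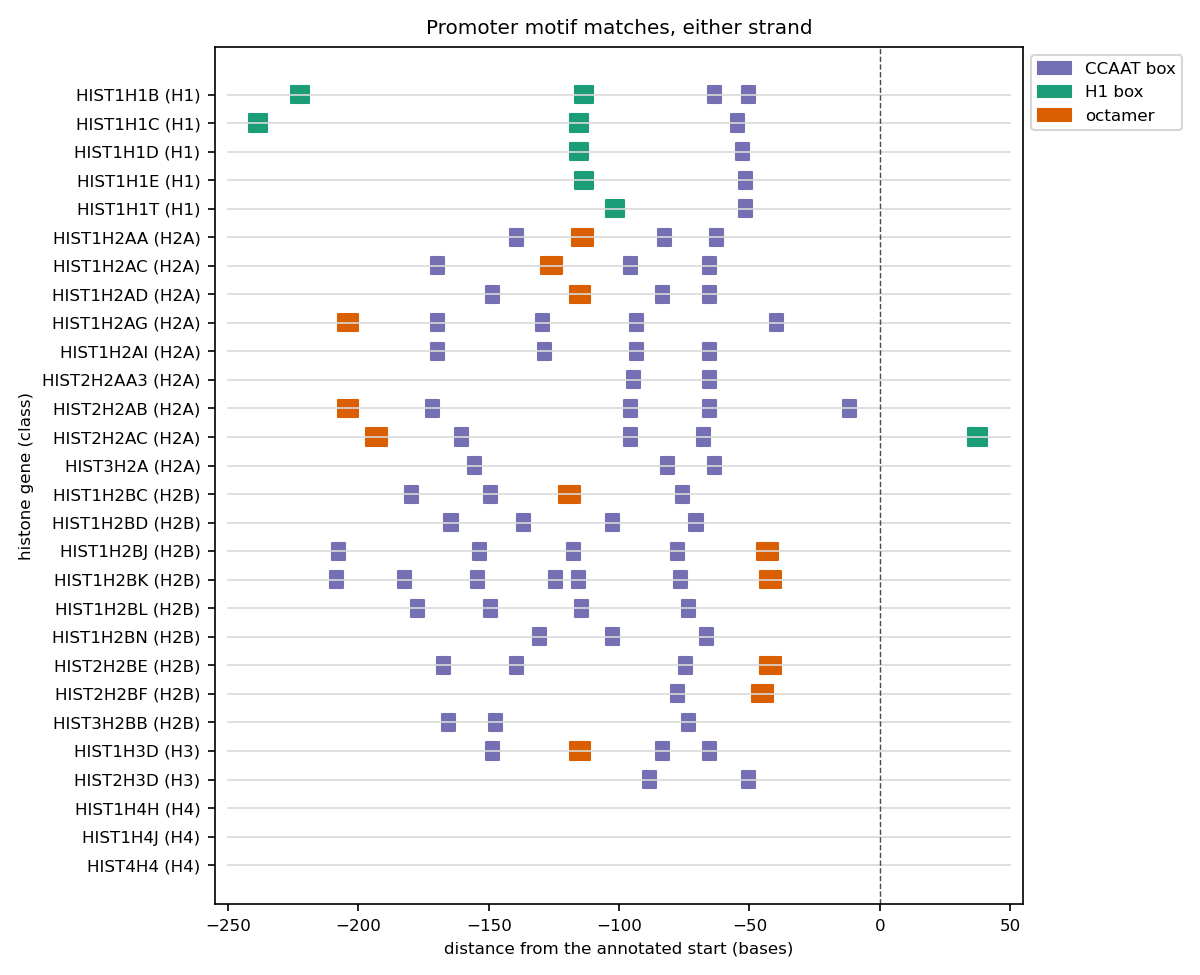
Position of matches to the octamer, the CCAAT box and the H1 box in the promoters of the 28 histone genes that have both a promoter and an entry in the tables. The x axis is the distance from the annotated start in bases and each row is a gene with its class. The H1 box marks all 5 H1 rows, and the octamer appears in 6 of 9 H2A and 5 of 9 H2B rows.

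Histone reads were scarce in these libraries and came from few genes. Between 580 and 1055 reads per library fell on a member, or 8.17 to 14.7 CPM before TMM scaling. Over the 12 libraries 9817 reads fell on members, of which 46.9% were on H2B, 22.7% on H1, 21.3% on H2A, 5.89% on H4 and 3.14% on H3 genes. The 5 members with the most reads held 54.0% of them. A list of 8 members that the literature describes as also giving polyadenylated transcripts (HIST1H1C, HIST1H2AC, HIST1H2BC, HIST1H2BD, HIST1H2BJ, HIST1H2BK, HIST2H2BE and HIST3H2A) held 6465 reads, or 65.9%. Coding sequences within a class are related but not identical, and how far reads could be shared between members was not measured. How reads with several positions were counted is not given in the sources used here, so the level of any single member is uncertain.

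Per kilobase of the longest annotated transcript, HIST1H2BK led with 5.09 CPM per kb over the 12 libraries, followed by HIST1H1C with 2.47, HIST1H2BD with 1.08 and HIST3H2A with 0.898 CPM per kb. HIST1H2BK did not lead in every group: in TAL1-KD and J4-2uM HIST1H1C stood above it, with means of 3.61 and 3.78 CPM per kb for HIST1H1C and 2.96 and 2.93 CPM per kb for HIST1H2BK. The annotated HIST1H2BK transcript has only 381 bases, so its value per kilobase rests on the coding part. The annotated transcripts of HIST1H1C, HIST1H2BD and HIST3H2A have 642, 789 and 895 bases. The annotation used for counting is not given, so the order per kilobase depends on transcript models that differ in extent. HIST2H2BE, with 11.4% of member reads, had 0.632 CPM per kb over 2194 bases. At the low end, 5 members had fewer than 10 reads in every library of their tables. Of these, HIST2H3D, an H3 gene, had 0 to 7 reads per library. HIST1H2AD and HIST2H2AA3 had 1 read each in all over the 4 libraries of the TAL1 table, and HIST1H1T and HIST1H2AA, H1 and H2A genes known from testis, had 1 read each in all over those of the UTX table. A count of 0 allows up to 3 reads, or 0.0375 to 0.0572 CPM depending on the library. The testis genes HIST1H2BA and HIST3H3 are among the members with no entry.

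**Figure D2:**
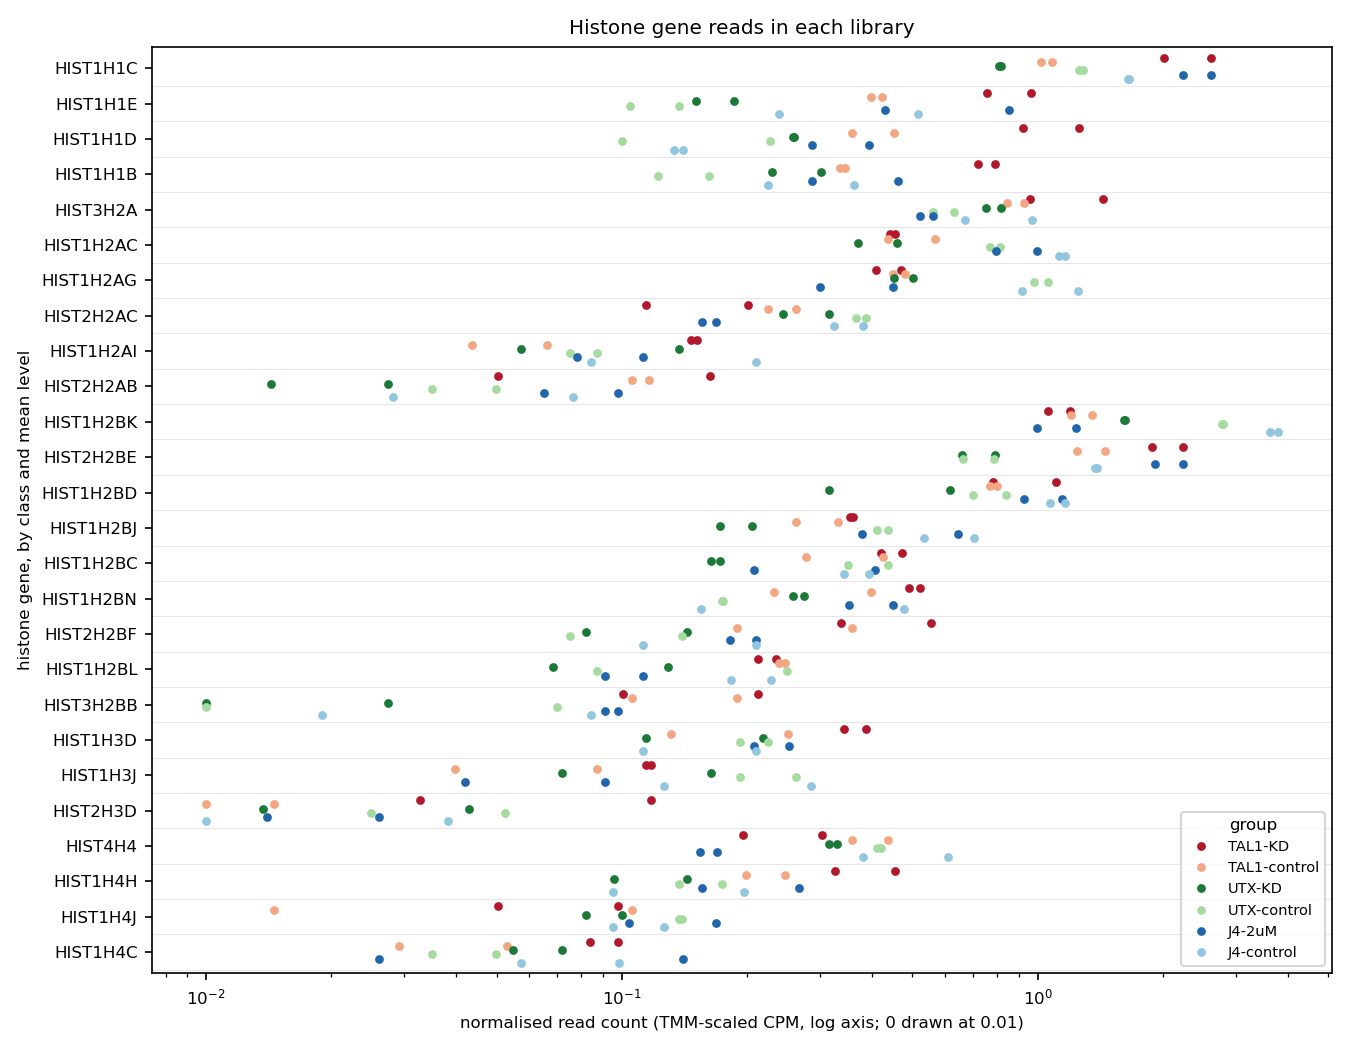
Normalised read count (TMM-scaled CPM, log axis, 0 drawn at 0.01) of the 26 histone genes with an entry in all 3 tables, ordered by class and mean level, with 1 point per library coloured by group. Reads concentrate on HIST1H1C, HIST2H2BE and HIST1H2BK, and the H3 and H4 rows lie mostly below 0.5 CPM.

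In TAL1-KD libraries the linker histone genes were higher as a class. All 4 H1 genes that could be tested rose, HIST1H1D by 1.43, HIST1H1B by 1.14, HIST1H1C by 1.13 and HIST1H1E by 1.07 on the log2 scale. Among core histones the call was limited to the H2B gene HIST2H2BE, by 0.61, and no member fell. H1 proteins bind the DNA that enters and leaves the nucleosome, whereas H2A, H2B, H3 and H4 form its core. By the edgeR quasi-likelihood test with Benjamini-Hochberg adjustment over all genes, 5 of the 20 members that passed the low-count filter were higher and 0 lower, against 26.3% higher and 27.9% lower among all 16829 genes tested or 54.2% in either direction (7 members had an unadjusted p under 0.05). Their median log2 fold change was 0.39, against -0.02 for all genes tested. Over the 28 members with an entry, 14 had both treated libraries above both controls and 4 below, against 38.8% and 42.1% of genes tested.

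HIST1H1C (ENSG00000187837), the H1 gene with the most reads, had 2.02 and 2.61 CPM in TAL1-KD against 1.09 and 1.02 CPM in TAL1-control (SE 0.21, edgeR adjusted p = 0.00341). HIST1H1D (ENSG00000124575) had 0.925 and 1.26 CPM in TAL1-KD against 0.358 and 0.451 CPM in TAL1-control (SE 0.27, edgeR adjusted p = 0.00376). Groups did not overlap for either gene, nor for the next pair. HIST1H1B (ENSG00000184357) stood at 0.790 and 0.718 CPM in TAL1-KD and 0.344 and 0.335 CPM in TAL1-control (SE 0.24, edgeR adjusted p = 0.00634). HIST1H1E (ENSG00000168298) stood at 0.757 and 0.963 CPM in TAL1-KD and 0.398 and 0.422 CPM in TAL1-control (SE 0.25, edgeR adjusted p = 0.00942). The fitted increases of the 4 H1 genes ran from 1.07 to 1.43, with 95% intervals between 0.48 (HIST1H1E) and 2.06 (HIST1H1D). Whether the increases differed between these genes was not tested. HIST2H2BE (ENSG00000184678) had 1.88 and 2.24 CPM in TAL1-KD against 1.25 and 1.46 CPM in TAL1-control (SE 0.20, edgeR adjusted p = 0.0323). Without TAL1-control replicate 1 the calls of HIST1H1E (1.02, edgeR adjusted p = 0.0677) and HIST2H2BE (0.50, edgeR adjusted p = 0.286) were lost and 3 members were called, and without TAL1-control replicate 2 that of HIST2H2BE (0.72, edgeR adjusted p = 0.105) was lost.

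The other core histone genes showed no call in TAL1-KD, and their fitted values ran in opposite directions. HIST1H2BK, the H2B gene with the most reads, had 1.19 and 1.06 CPM in TAL1-KD against 1.21 and 1.35 CPM in TAL1-control, a log2 fold change of -0.18 (95% interval -0.65 to 0.28). HIST1H3D, an H3 gene, had 0.387 and 0.343 CPM in TAL1-KD against 0.252 and 0.131 CPM in TAL1-control, a log2 fold change of 0.91 with an edgeR adjusted p of 0.0729. HIST1H4H, an H4 gene, had 0.454 and 0.326 CPM in TAL1-KD against 0.199 and 0.248 CPM in TAL1-control (log2 fold change 0.80, edgeR adjusted p = 0.0699). In these cases the treated libraries lay above the controls for HIST1H3D and HIST1H4H and below them for HIST1H2BK. HIST4H4, the other tested H4 gene, had 0.303 and 0.196 CPM in TAL1-KD against 0.358 and 0.437 CPM in TAL1-control (log2 fold change -0.67, edgeR adjusted p = 0.122). Alternatives brought calls among these genes, all higher: HIST1H3D with the replicate block (0.93, edgeR adjusted p = 0.0365), HIST1H4H (0.97, edgeR adjusted p = 0.0294) and HIST1H2BN (0.96, edgeR adjusted p = 0.0303) with length and GC offsets, and HIST2H2BF with block and offsets (0.80, edgeR adjusted p = 0.0467). Without TAL1-KD replicate 1, HIST3H2A (0.71, edgeR adjusted p = 0.0108) and HIST2H2BF (1.01, edgeR adjusted p = 0.0310) were called, and without TAL1-KD replicate 2 HIST1H4H (1.03, edgeR adjusted p = 0.0393). At an adjusted p under 0.05 the authors' deposited table had 4 members higher and 0 lower, all 4 called here too, and 8 members had no adjusted p.

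In TAL1-KD, other RNAs without a poly(A) tail were higher along with the H1 genes. On a list of 18 such RNAs, 5 of the 6 tested were higher in TAL1-KD and 0 lower, against 26.3% and 27.9% of all genes tested. Their median log2 fold change was 1.58 against -0.02 for all genes tested. The 5 higher ones were RMRP (2.07), the RNA of RNase MRP, SNORD3A (1.95), the U3 RNA of ribosomal RNA processing, SNORA73B (2.14), SCARNA13 (1.17) and SCARNA10 (1.20). Summed over the list they reached 3.60 and 5.91 CPM in TAL1-KD against 1.40 and 1.70 CPM in TAL1-control. Their part in the result for H1 was not tested. Replicates of TAL1-KD also stood further apart than those of any other group, with an SD of the log2 difference between them of 0.243 over genes, against 0.124 in TAL1-control.

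In UTX-KD libraries 2 of 4 tested H2A genes and 4 of 6 tested H2B genes fell, and no member passed the test as higher. HIST1H2BC fell by 1.19, HIST1H2BJ by 1.15, HIST1H2AG by 1.10, HIST1H2AC by 0.94, HIST1H2BK by 0.79 and HIST1H2BD by 0.71 on the log2 scale. HIST1H1C, an H1 gene, fell by 0.65. Of 18 members that passed the low-count filter 0 were higher and 7 lower by the edgeR test, against 25.2% higher and 25.3% lower among all 16847 genes tested or 50.5% in either direction (9 members had an unadjusted p under 0.05). The median log2 fold change was -0.40 over these 18, against 0.01 for all genes tested. Over the 28 members with an entry, 6 had both treated libraries above both controls and 12 below, against 37.8% and 36.0% of genes tested.

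HIST1H2BK (ENSG00000197903) had 1.62 and 1.62 CPM in UTX-KD against 2.80 and 2.78 CPM in UTX-control, the closest replicates among the called members (SE 0.12, edgeR adjusted p = 2.88e-05). HIST1H2AG (ENSG00000196787) had 0.452 and 0.501 CPM in UTX-KD against 1.06 and 0.978 CPM in UTX-control (SE 0.20, edgeR adjusted p = 0.000209). HIST1H2AC (ENSG00000180573) had 0.370 and 0.459 CPM in UTX-KD against 0.812 and 0.769 CPM in UTX-control (SE 0.22, edgeR adjusted p = 0.00204). In each of these genes both UTX-KD libraries were below both UTX-control libraries. HIST1H2BJ (ENSG00000124635) stood at 0.205 and 0.172 CPM in UTX-KD and 0.412 and 0.437 CPM in UTX-control (SE 0.30, edgeR adjusted p = 0.00416). HIST1H2BC (ENSG00000180596) stood at 0.164 and 0.172 CPM in UTX-KD and 0.350 and 0.437 CPM in UTX-control (SE 0.32, edgeR adjusted p = 0.00508). These counts are small, 12 to 33 reads per library, yet the groups did not overlap. HIST1H1C stood at 0.808 and 0.817 CPM in UTX-KD and 1.29 and 1.26 CPM in UTX-control (SE 0.17, edgeR adjusted p = 0.00380). HIST1H2BD (ENSG00000158373) stood at 0.315 and 0.616 CPM in UTX-KD and 0.699 and 0.838 CPM in UTX-control (SE 0.27, edgeR adjusted p = 0.0339). Its call rested on single libraries: the log2 fold change was -0.30 without UTX-KD replicate 1 and -1.26 without UTX-KD replicate 2, and without UTX-control replicate 2 it was -0.59 with an edgeR adjusted p of 0.0834. By the Wald test of DESeq2, 3 members were lower, HIST1H2AC, HIST1H2AG and HIST1H2BK.

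Several members had higher fitted values in UTX-KD without passing the test. HIST3H2A, an H2A gene, had 0.753 and 0.817 CPM in UTX-KD against 0.562 and 0.629 CPM in UTX-control (log2 fold change 0.41, edgeR adjusted p = 0.110), and it was called with total counts (0.50, edgeR adjusted p = 0.0498). HIST1H2BN, an H2B gene, had 0.274 and 0.258 CPM in UTX-KD against 0.175 and 0.175 CPM in UTX-control (log2 fold change 0.60, edgeR adjusted p = 0.165). Both UTX-KD libraries lay above both controls for HIST3H2A, HIST1H2BN and the H1 gene HIST1H1B. HIST1H1B had 0.301 and 0.229 CPM in UTX-KD against 0.162 and 0.122 CPM in UTX-control, a log2 fold change of 0.86 (95% interval 0.08 to 1.64, edgeR adjusted p = 0.0623), and it was called with total counts (0.95, edgeR adjusted p = 0.0384). HIST1H1D had 0.260 and 0.258 CPM in UTX-KD against 0.0999 and 0.227 CPM in UTX-control (log2 fold change 0.75, edgeR adjusted p = 0.127), and without UTX-control replicate 2 it was called at 1.36. HIST1H1E had 0.151 and 0.186 CPM in UTX-KD against 0.137 and 0.105 CPM in UTX-control (log2 fold change 0.44, edgeR adjusted p = 0.435). HIST2H2BE, called in the other comparisons, had 0.657 and 0.788 CPM in UTX-KD and 0.662 and 0.786 CPM in UTX-control, a log2 fold change of 0.01 with a 95% interval of -0.43 to 0.45. The 2 groups of HIST2H2BE overlapped fully. HIST1H3J, an H3 gene, had 0.164 and 0.0717 CPM in UTX-KD against 0.262 and 0.192 CPM in UTX-control (log2 fold change -0.96, edgeR adjusted p = 0.0738), and without UTX-KD replicate 1 it was called at -1.68 (edgeR adjusted p = 0.0316). The authors' deposited table had 0 members higher and 2 lower at an adjusted p under 0.05, both called here too, and 21 members had no adjusted p. Other RNAs without a poly(A) tail summed to 1.23 and 1.49 CPM in UTX-KD against 1.70 and 1.85 CPM in UTX-control. Of 4 tested, 0 were higher and 1 lower, against 25.2% and 25.3% of all genes tested. The part of these RNAs in the histone changes was not tested.

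With GSK-J4, 2 of 4 tested H1 genes rose, and 6 of 15 tested core histone genes fell while 1, HIST2H2BE, rose. HIST1H2BK fell by 1.72, HIST1H2AG by 1.57, HIST4H4 by 1.56, HIST2H2AC by 1.13, HIST1H2BL by 0.99 and HIST3H2A by 0.63 on the log2 scale. HIST1H1D rose by 1.28, HIST2H2BE by 0.58 and HIST1H1C by 0.55. By the edgeR test 3 of 19 members that passed the low-count filter were higher and 6 lower, against 37.9% higher and 36.9% lower among all 17907 genes tested. Of all genes, 74.9% were called in one direction or the other. That share covers genes at any read count, while members had few reads. Members were not set against genes with like counts, so no result about members is drawn from these shares. The median log2 fold change was -0.10 over the 19 members and 0.01 over all genes tested. Over the 26 members with an entry, 4 had both treated libraries above both controls and 8 below, against 44.1% and 43.1% of genes tested.

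HIST1H2BK had 1.24 and 0.996 CPM in J4-2uM against 3.79 and 3.62 CPM in J4-control, the largest fall among members here (SE 0.13, edgeR adjusted p = 6.66e-08). HIST1H2AG had 0.299 and 0.449 CPM in J4-2uM against 0.915 and 1.25 CPM in J4-control (SE 0.25, edgeR adjusted p = 7.48e-05). HIST4H4 (ENSG00000197837) had 0.169 and 0.154 CPM in J4-2uM against 0.610 and 0.380 CPM in J4-control (SE 0.34, edgeR adjusted p = 0.000961). All 3 kept their call under every alternative that could be fitted. HIST2H2AC (ENSG00000184260), an H2A gene, stood at 0.156 and 0.168 CPM in J4-2uM and 0.324 and 0.380 CPM in J4-control (SE 0.32, edgeR adjusted p = 0.00598). HIST3H2A (ENSG00000181218) stood at 0.521 and 0.561 CPM in J4-2uM and 0.667 and 0.971 CPM in J4-control (SE 0.23, edgeR adjusted p = 0.0242). HIST1H2BL (ENSG00000185130) stood at 0.0911 and 0.112 CPM in J4-2uM and 0.229 and 0.183 CPM in J4-control, which is 7 and 8 reads against 12 and 13 (SE 0.41, edgeR adjusted p = 0.0424). The J4-2uM libraries lay below the controls in each of these 3. Without J4-control replicate 2 the calls of HIST2H2AC (edgeR adjusted p = 0.0881) and HIST3H2A (-0.31, edgeR adjusted p = 0.411) were lost, and that of HIST3H2A was also lost without J4-2uM replicate 1 (-0.60, edgeR adjusted p = 0.0657). HIST1H2BL lost its call under 9 of 11 alternatives, among them leaving out any of the 4 libraries, with values from -1.17 to -0.80 and edgeR or DESeq2 adjusted p-values up to 0.269.

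Among the genes that rose with GSK-J4, HIST1H1C had 2.24 and 2.61 CPM in J4-2uM against 1.66 and 1.65 CPM in J4-control (SE 0.13, edgeR adjusted p = 0.00224). HIST2H2BE had 1.91 and 2.24 CPM in J4-2uM against 1.37 and 1.39 CPM in J4-control (SE 0.14, edgeR adjusted p = 0.00249). HIST1H1D had 0.286 and 0.393 CPM in J4-2uM against 0.133 and 0.141 CPM in J4-control (SE 0.35, edgeR adjusted p = 0.00512). No group overlapped in these 3, though HIST1H1D lost its call without J4-2uM replicate 2 (1.05, edgeR adjusted p = 0.0527). HIST1H1E, which was not called, had 0.429 and 0.856 CPM in J4-2uM against 0.515 and 0.239 CPM in J4-control, so its groups overlapped (log2 fold change 0.83, edgeR adjusted p = 0.0632). It was called higher under 8 of 11 alternatives, the replicate block among them (0.83, edgeR adjusted p = 0.0163), with values from 0.26 to 1.40 over all 11 and the highest without J4-control replicate 1. Without J4-control replicate 1, 5 members were higher. HIST1H2BD, in contrast to HIST1H2BK of the same class, had 1.15 and 0.926 CPM in J4-2uM against 1.16 and 1.07 CPM in J4-control, a log2 fold change of -0.10 (95% interval -0.48 to 0.29). With the same threshold the authors' deposited table had 2 members higher and 3 lower, all 5 called here too, and 1 member had no adjusted p. Other RNAs without a poly(A) tail summed to 2.43 and 3.44 CPM in J4-2uM against 2.17 and 2.10 CPM in J4-control. Of 6 tested, 2 were higher and 1 lower, against 37.9% and 36.9% of all genes tested. B-lineage markers summed to 92.5 and 84.3 CPM in J4-2uM against 39.6 and 39.9 CPM in J4-control. The part of either in the histone changes was not tested.

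**Figure D3:**
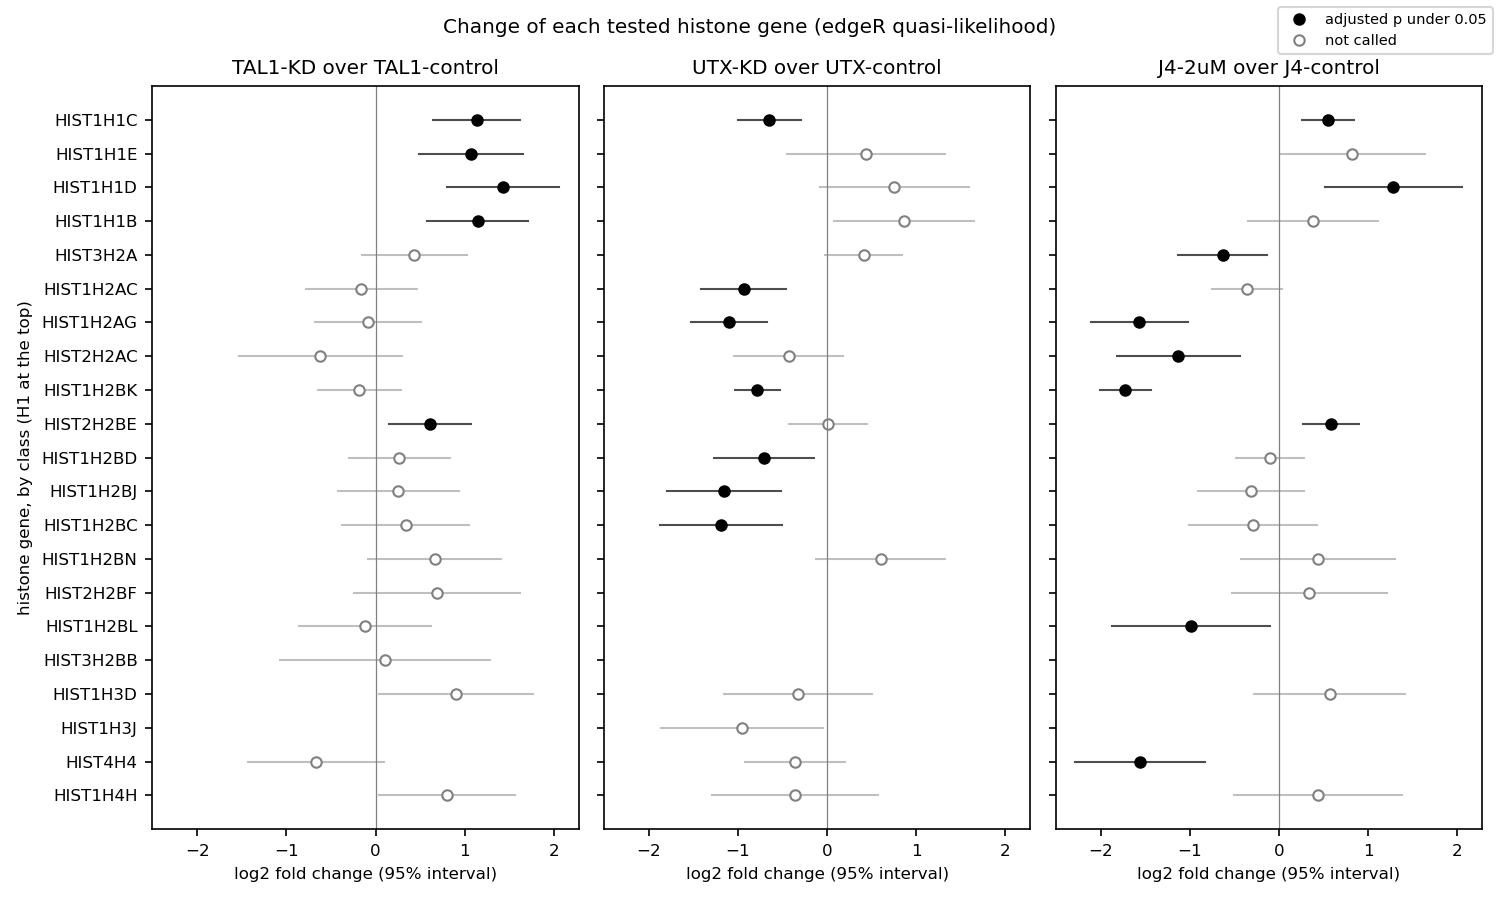
Log2 fold change of each tested histone gene with its 95% interval (edgeR quasi-likelihood) in TAL1-KD over TAL1-control, UTX-KD over UTX-control and J4-2uM over J4-control. Filled points have an adjusted p under 0.05 over all genes tested; H1 genes stand at the top, and rows without a point were not tested in that comparison.

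The 3 comparisons share no library, so differences between their responses were tested pair by pair in a fit with an interaction term. HIST1H1C differed in 2 of the 3 pairs. Its response in TAL1-KD exceeded that in UTX-KD by 1.81 on the log2 scale (SE 0.25, edgeR adjusted p = 0.000406), and its response in UTX-KD was below that with GSK-J4, a difference of -1.21 (SE 0.22, edgeR adjusted p = 2.09e-05). Between TAL1-KD and GSK-J4 it differed by 0.62 with a 95% interval of 0.08 to 1.15 and an edgeR adjusted p of 0.0515. The response of HIST1H2BK was lower with GSK-J4 than in either knockdown. The differences were 1.57 for TAL1-KD minus GSK-J4 (SE 0.23, edgeR adjusted p = 0.000243) and 0.93 for UTX-KD minus GSK-J4 (SE 0.19, edgeR adjusted p = 0.000101). These are differences in response and not in level: mean levels were 1.12 CPM in J4-2uM, 1.13 CPM in TAL1-KD and 1.62 CPM in UTX-KD.

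Between TAL1-KD and UTX-KD, 5 of 21 members had a higher response in TAL1-KD and 0 a lower one, against 25.0% and 25.1% of all genes tested, or 50.1% in either direction. Besides HIST1H1C these were HIST1H2BC (difference 1.57, edgeR adjusted p = 0.0128), HIST1H2BJ (1.44, edgeR adjusted p = 0.0103), HIST1H2AG (1.05, edgeR adjusted p = 0.0139) and HIST1H2BK (0.64, edgeR adjusted p = 0.0251). HIST1H2AG and HIST1H2BK lost this call without TAL1-control replicate 1, UTX-control replicate 1 or UTX-KD replicate 1, HIST1H2BK also without TAL1-KD replicate 1 or the second replicate of either UTX group, and HIST1H2BC without UTX-KD replicate 1, with edgeR adjusted p-values of 0.0501 to 0.0913 and 3 members called without each of those 3 libraries. Between TAL1-KD and GSK-J4, 3 of 21 members had a higher response in TAL1-KD, HIST1H2BK, HIST1H2AG (1.51, edgeR adjusted p = 0.00683) and HIST3H2A (1.09, edgeR adjusted p = 0.0250), and 0 a lower one, against 26.3% and 27.6% of all genes, or 53.9% in either direction. HIST3H2A lost this call on leaving out any of 6 of the 8 libraries, all but TAL1-KD replicate 1 and J4-control replicate 1, with differences of 0.77 to 1.16. Without TAL1-KD replicate 1, 5 members were called there. Between UTX-KD and GSK-J4, 3 of 20 members had a higher response in UTX-KD, HIST1H2BK, HIST3H2A (1.03, edgeR adjusted p = 0.00525) and HIST4H4 (1.18, edgeR adjusted p = 0.0256), and 1 a lower one, HIST1H1C, against 30.1% and 28.3% of all genes, or 58.4% in either direction. Without J4-control replicate 2 the call of HIST3H2A was lost in this pair (0.71, edgeR adjusted p = 0.107), and that of HIST4H4 was lost on leaving out any of 6 of the 8 libraries, all but UTX-control replicate 2 and J4-control replicate 2. The count of members with a lower response was 2 without UTX-control replicate 1, 3 without UTX-KD replicate 2 and 5 without J4-2uM replicate 1.

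Sums over a class include the members that the filter removed, and they carry no test. H1 genes together reached 4.49 and 5.55 CPM in TAL1-KD against 2.19 and 2.23 CPM in TAL1-control, a log2 ratio of means of 1.19. They reached 1.53 and 1.49 CPM in UTX-KD against 1.69 and 1.71 CPM in UTX-control (log2 ratio -0.17), and 3.24 and 4.32 CPM in J4-2uM against 2.67 and 2.25 CPM in J4-control (log2 ratio 0.62). Both treated libraries were thus above the controls in TAL1-KD and J4-2uM and below them in UTX-KD, where leaving out HIST1H1C turned the log2 ratio to 0.71. H2B genes summed to 6.15 and 6.38 CPM in TAL1-KD against 5.07 and 5.01 CPM in TAL1-control, to 3.41 and 3.90 CPM in UTX-KD against 5.42 and 5.75 CPM in UTX-control, and to 5.59 and 6.09 CPM in J4-2uM against 8.14 and 7.71 CPM in J4-control. Leaving out HIST1H2BK, which holds the most H2B reads, moved the H2B log2 ratio with GSK-J4 from -0.44 to 0.16. H2A genes summed to 2.05 and 2.09 CPM in UTX-KD against 2.96 and 2.86 CPM in UTX-control and to 1.91 and 2.38 CPM in J4-2uM against 3.36 and 3.84 CPM in J4-control. In TAL1-KD the H2A sums, 2.30 and 2.73 CPM, overlapped those of TAL1-control, 2.21 and 2.31 CPM. H3 and H4 sums stayed below 1 CPM in every library.

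**Figure D4:**
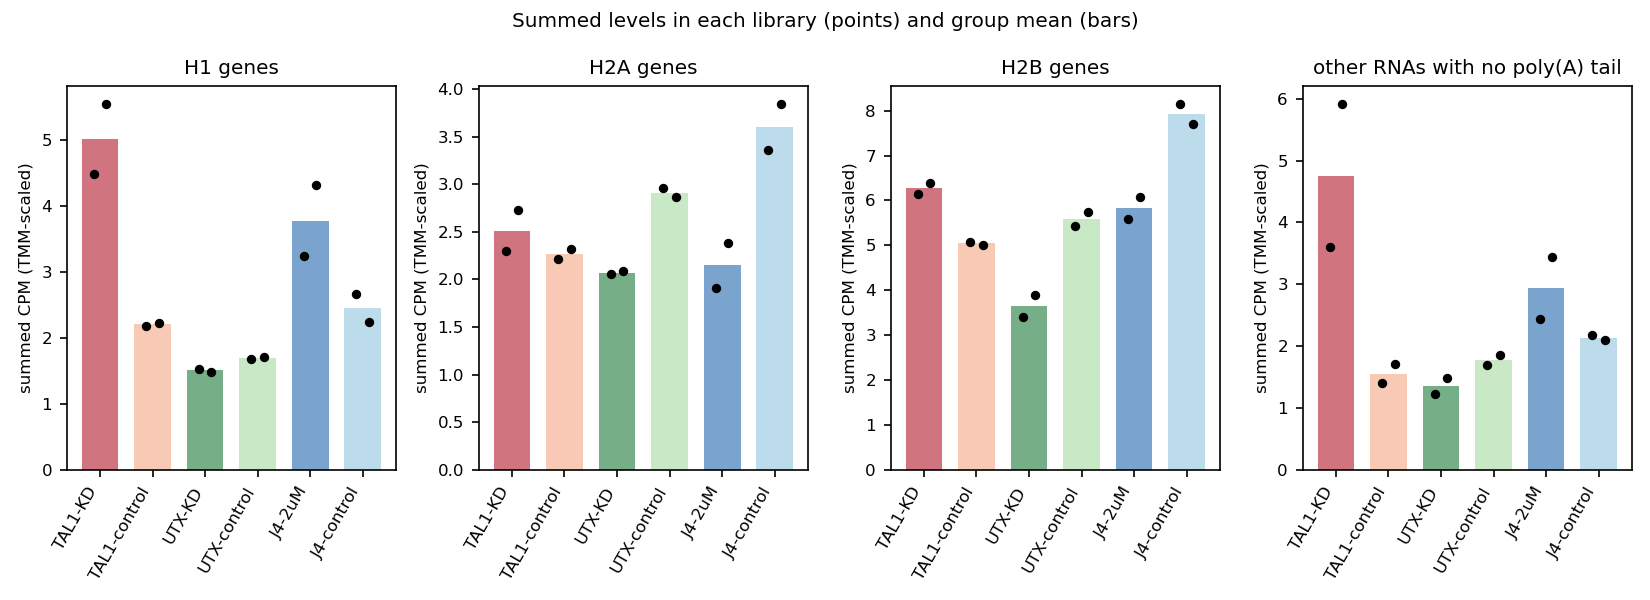
Summed CPM of all H1, H2A and H2B genes with an entry and, in the last panel, of other RNAs with no poly(A) tail, in each library (points) with the group mean (bars). H1 genes and the other RNAs stand highest in TAL1-KD, whereas H2A and H2B genes stand highest in J4-control.

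Levels also differed between the 3 control groups, whose values were scaled in separate fits and were not tested against each other. HIST1H2BK had 1.21 and 1.35 CPM in TAL1-control, 2.80 and 2.78 CPM in UTX-control and 3.79 and 3.62 CPM in J4-control. HIST1H1E ran the other way for the knockdown lines, with 0.398 and 0.422 CPM in TAL1-control and 0.137 and 0.105 CPM in UTX-control. All members together stood at 10.5 and 10.5 CPM in TAL1-control, 11.3 and 11.5 CPM in UTX-control and 15.6 and 14.8 CPM in J4-control.

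Several H2A and H2B genes face each other across 1 promoter, so that most of the promoter window of one is that of its partner on the other strand. HIST1H2AC and HIST1H2BC, which share 255 bases, both fell in UTX-KD (-0.94 and -1.19), and neither was called with GSK-J4 (-0.36 and -0.29). HIST1H2AG and HIST1H2BJ, which share 253 bases, both fell in UTX-KD (-1.10 and -1.15), whereas with GSK-J4 HIST1H2AG fell by 1.57 and HIST1H2BJ had a fitted value of -0.31 (95% interval -0.91 to 0.29). HIST2H2AC and HIST2H2BE, which share 265 bases, were called in opposite directions with GSK-J4 (-1.13 and 0.58). In TAL1-KD the 3 pairs had fitted values of -0.16 and 0.34, -0.08 and 0.26, and -0.62 and 0.61, and HIST2H2BE alone was called. On leaving out 1 library with GSK-J4, HIST1H2AC ran from -0.52 to -0.21 and HIST1H2BJ from -0.74 to 0.02. Differences within a pair were not tested. The pairs HIST1H2AI and HIST1H2BL (257 bases) and HIST3H2A and HIST3H2BB (271 bases) could not be compared in full, because 1 gene of each had too few reads. The octamer printed for HIST1H2AG and HIST1H2BK is present in all 6 genes of the first 3 pairs.

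The 8 members described as also polyadenylated did not move as 1 group. In TAL1-KD 2 of 8 were higher and 0 lower, in UTX-KD 0 were higher and 6 lower, and with GSK-J4 2 were higher and 2 lower, with median log2 fold changes of 0.30, -0.75 and -0.30. Over all genes tested, the shares higher and lower were 26.3% and 27.9% in TAL1-KD, 25.2% and 25.3% in UTX-KD, and 37.9% and 36.9% with GSK-J4. Their summed level was 8.39 and 9.40 CPM in TAL1-KD against 6.43 and 6.58 CPM in TAL1-control. It was 4.89 and 5.46 CPM in UTX-KD against 7.58 and 7.93 CPM in UTX-control, and 8.43 and 9.38 CPM in J4-2uM against 10.7 and 10.9 CPM in J4-control. The list holds most member reads, so these sums follow those of all members.

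A list for histone transcription and 3-prime processing held 20 genes under 22 names, as MIZF and ZCCHC6 are older names of HINFP and TUT7. All 20 were tested. In UTX-KD 1 was higher and 14 lower, in TAL1-KD 5 higher and 10 lower, and with GSK-J4 8 higher and 9 lower. The medians were -0.13, -0.18 and -0.07. Of all genes tested, 25.2% were called higher and 25.3% lower in UTX-KD, 26.3% and 27.9% in TAL1-KD, and 37.9% and 36.9% with GSK-J4. In either direction the shares were 50.5%, 54.2% and 74.9%. SLBP, the stem-loop binding protein, fell by 0.39 in UTX-KD and by 0.14 with GSK-J4 and had a fitted value of -0.00 in TAL1-KD (edgeR adjusted p = 1.42e-08, 0.00366 and 0.991). POU2F1, which binds the octamer, fell by 0.57 in UTX-KD, 0.38 in TAL1-KD and 0.56 with GSK-J4. In TAL1-KD the nuclease gene ERI1, whose product trims the histone mRNA end, fell by 0.85 and CASP8AP2 (FLASH), a partner of the U7 snRNP, by 0.99, while HINFP, the H4 promoter factor, rose by 0.76. With GSK-J4 the cleavage factor genes CPSF3, CPSF2 and SYMPK fell by 0.77, 0.63 and 0.58.

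Histone chaperones and replacement histones gave the context of histone supply outside the members. Of 18 chaperone genes tested, 2 were higher and 11 lower in TAL1-KD, 0 higher and 13 lower in UTX-KD, and 4 higher and 11 lower with GSK-J4, against 27.9%, 25.3% and 36.9% of all genes called lower. HIRA, which deposits the H3.3 variant independently of replication, fell by 0.76 in TAL1-KD, 0.33 in UTX-KD and 1.22 with GSK-J4. CENPA, the centromeric H3 variant, fell by 1.34 in TAL1-KD, 0.77 in UTX-KD and 0.85 with GSK-J4. H1F0, the replacement H1 known from non-dividing cells, fell by 0.47 in TAL1-KD but rose by 0.35 in UTX-KD and 1.39 with GSK-J4, and H1FX, another replacement H1, rose by 0.66, 0.16 and 0.69. Over the list of 12 replacement histones, of which 11 were tested, 3, 2 and 3 genes were higher in TAL1-KD, UTX-KD and J4-2uM and 5 were lower in each, against 26.3%, 25.2% and 37.9% of all genes called higher and the shares called lower just given. These polyadenylated histone mRNAs summed to 2536 to 4200 CPM per library, far above the replication-dependent genes as read here.

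Most S phase genes fell in both knockdown comparisons. Of 24 S phase and DNA replication genes, all tested, 0 were higher and 20 lower in TAL1-KD, with a median log2 fold change of -0.57, and 0 were higher and 21 lower in UTX-KD, with a median of -0.33, against 27.9% and 25.3% of all genes called lower. With GSK-J4 10 were higher and 10 lower, with a median of -0.02, against 37.9% and 36.9% of all genes. POLA1, the catalytic subunit of DNA polymerase alpha, fell by 1.72 and the thymidine kinase gene TK1 by 1.10 in TAL1-KD. Of 4 tested H1 genes, 4 were called higher in TAL1-KD, 0 in UTX-KD and 2 with GSK-J4. Among all genes tested, 26.3%, 25.2% and 37.9% were called higher in these comparisons. In UTX-KD 1 H1 gene, HIST1H1C, was called lower. CCNA2, the cyclin A gene, fell by 0.68 in UTX-KD and by 0.91 with GSK-J4, and the licensing factor gene CDT1 rose by 1.06 with GSK-J4. All members together had a mean of 15.2 CPM in TAL1-KD against 10.5 CPM in TAL1-control. The means were 8.15 against 11.4 CPM in UTX-KD and UTX-control, and 12.7 against 15.2 CPM in J4-2uM and J4-control. Where histone RNA was lower, fewer cells in S phase and less histone RNA per cell cannot be told apart in bulk RNA.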

How the data were processed

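The histone genes, the gene lists and the tests were chosen with earlier results of these data known. RNA from 12 Jurkat libraries was sequenced after poly(A) selection with a stranded mRNA kit, per the labels' protocols. The authors made gene read counts with TopHat2 2.0.12 and HTSeq 0.6.1p1 on hg19, per the submitters' processing notes. Which annotation and strand setting were used, and how multi-mapped reads were treated, is not given in the sources used here. The deposited tables also hold the authors' DESeq2 mean signal (baseMean), log2 fold change, test score (stat) and p-value per gene, per the file headers.

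Here the deposited counts were tested with the quasi-likelihood test of edgeR 4.0.16 (R 4.3.3, limma 3.58.1) after filterByExpr and TMM scaling, each comparison on its own 4 libraries, with Benjamini-Hochberg adjustment over all genes tested and a threshold of 0.05. Differences between comparisons were tested over 8 libraries with an interaction term. CPM values set across comparisons were scaled separately. Counted reads per library and the limit that a count of 0 allows, 3 reads, cover counting error only. Intervals are 95% intervals of the fit.

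Members were found by Ensembl identifier with GENCODE 29 names. Stem-loops were read from GENCODE 29 transcripts and promoters from RefSeq (GRCh38.p14), and no hg19 coordinate was used. Genes to name were the 3 members of each class with the highest CPM, the 4 called members with the largest changes and a mean of at least 1 CPM in each direction, the 3 members with the smallest p between comparisons, the polyadenylated and testis lists, and up to 4 called genes of each other list. Other members, and SLBP, POU2F1, HIRA, H1F0 and H1FX where that rule did not name them, were named after their values were seen.

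Alternatives were DESeq2 1.42.0 size factors and its Wald test, total counts, no filter, a filter of 50 reads in 2 libraries, offsets for length and GC content (spline with 4 degrees of freedom), a replicate block, leaving out each library, and class sums without their leading member.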

Additional observations from a re-analysis of the deposited data

Results flagged for a closer look

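For 5 of 21 histone genes tested, the response in TAL1-KD differed from that in UTX-KD by the test of the difference itself, which is why they are listed here. All 5 differences are on the log2 scale and positive, so the response was higher in TAL1-KD. The differences were 1.815 for HIST1H1C, 1.566 for HIST1H2BC, 1.44 for HIST1H2BJ, 1.051 for HIST1H2AG and 0.6352 for HIST1H2BK. HIST1H1C was higher in TAL1-KD and lower in UTX-KD, each past the threshold, while the other 4 were lower in UTX-KD and were not called in TAL1-KD. Of all genes tested, 25.0% had a higher and 25.1% a lower response in TAL1-KD than in UTX-KD. The count of 5 of 21 is near that share, so no result about histone genes as a group is drawn from it. HIST1H1C and HIST1H2BJ kept this call under every alternative, while HIST1H2BC, HIST1H2AG and HIST1H2BK did not.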

How the results depend on the processing

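Of the values for single histone genes, 760 kept direction and side of the threshold under an alternative, 53 lost a call, 28 gained one and 29 turned. Of the counts and class sums, 296 held and 40 moved. Few reads per member and 2 libraries per group limit all of them. The causes were not tested.

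Members called higher in TAL1-KD numbered 3 with the stricter filter, 8 with the replicate block plus length and GC offsets, and 3 to 7 on leaving out 1 library. All genes called higher there ranged from 2431 to 5869 and lower from 3094 to 6083. In UTX-KD 2 members were higher with total counts and 0 to 1 on leaving out a library, 3 were lower with the stricter filter and 3 by the Wald test, and 2694 genes were lower with total counts. In J4-2uM 1 member was lower with the stricter filter and 3 by the Wald test, and 2 to 5 were higher on leaving out a library. Between comparisons, higher responses numbered 3 to 6 (TAL1-KD minus UTX-KD) and 2 to 5 (TAL1-KD minus GSK-J4), and lower ones 1 to 5 (UTX-KD minus GSK-J4), with 5 under length and GC offsets and 2 under the replicate block.

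The replicate numbers come from the labels only, which do not say what libraries with the same number share. Over genes, the log2 difference between replicates 1 and 2 of the treated group was correlated with that of the controls. The correlations were 0.143 (TAL1), 0.00408 (UTX) and -0.0327 (J4), and they cannot show whether the design paired the libraries. With the replicate block 6 members were higher and 0 lower in TAL1-KD, 0 and 7 in UTX-KD, and 4 and 6 in J4-2uM.

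Calls also lost were HIST2H2BE in TAL1-KD with total counts and by the Wald test, HIST1H2BD in UTX-KD with both, HIST1H1C, HIST1H2BC and HIST1H2BJ in UTX-KD by the Wald test, and in J4-2uM HIST1H1D and HIST2H2AC by the Wald test, HIST3H2A with both, and HIST1H2BL with both, with no filter, with offsets and with block and offsets. HIST1H2BK lost its TAL1-KD minus UTX-KD call with length and GC offsets. None of the values that turned was called. In TAL1-KD HIST1H2AC was 0.027 and HIST1H2AG 0.047 with length and GC offsets, 0.029 and 0.047 with the replicate block added, and -0.343 to 0.031 and -0.172 to 0.020 on leaving out a library. HIST3H2BB was -0.040 with total counts and -0.521 to 0.559 on leaving out a library. In UTX-KD HIST2H2BE was -0.003 by the Wald test, -0.003 with the replicate block and -0.007 with block and offsets, and -0.122 to 0.138 on leaving out a library, where HIST1H3D was -0.872 to 0.055. In J4-2uM HIST1H2BC was 0.017 with block and offsets, and HIST1H2BD was 0.074 with total counts, 0.127 with offsets and 0.107 with block and offsets. Leaving out a library there gave -0.832 to 0.111 for HIST1H2BC, -0.278 to 0.045 for HIST1H2BD, -0.736 to 0.017 for HIST1H2BJ, -0.267 to 1.345 for HIST1H2BN and -0.108 to 0.779 for HIST2H2BF. The TAL1-KD minus UTX-KD difference of HIST3H2A was -0.004 with offsets and -0.267 to 0.322 on leaving out a library, and that of HIST4H4 was -0.607 to 0.011.

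Class sums with total counts had log2 ratios of 0.385 (all) and 0.170 (H2B) in TAL1-KD, -0.394 (all), -0.075 (H1) and -0.398 (H2A) in UTX-KD and -0.270 (H2B) in J4-2uM. Without the leading member of each class they were -0.065 (H2A), 0.450 (H2B), 1.432 (H3) and 0.775 (H4) in TAL1-KD, 0.713 (H1), -0.847 (H2A) and -0.457 (H2B) in UTX-KD, and -0.028 (all), 0.163 (H2B), -1.380 (H3) and 0.363 (H4) in J4-2uM.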
